A study of Mus musculus with 12 samples.

Results

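Cluster 1 was 1 of 4 clusters of hepatocyte nuclei in mouse liver cells that had been cultured for 24 hours. Its members were the nuclei of the Primary Hepatocytes samples that the authors named cultured cells and placed in their cluster 1, which gave 5846 nuclei, out of 18394 nuclei from cultured cells and 53467 nuclei in the series. The other cultured hepatocyte clusters were cluster 0 with 5961 nuclei, cluster 14 with 1682 and cluster 17 with 1271. A further 17 Cell Suspension nuclei and 2 Liver nuclei carried the same cluster number and were left out.

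The study took liver biopsies (Liver), freshly isolated cells after collagenase digestion (Cell Suspension) and hepatocytes after 24 hours on collagen (Primary Hepatocytes) from each of 8 wild-type mice. The mice were chow-fed males 10 to 12 weeks of age, of a strain given as C57BL6J in the labels and as C57BL/6NTac in the methods. Plated cells received fetal bovine serum, dexamethasone and insulin, which all cultured samples shared, and were detached with trypsin before nuclei were isolated, so culture, medium and detachment cannot be told apart in comparisons with Liver. Nuclei were tagged with 1 antibody-linked DNA barcode (hashtag) per sample, sorted, and mixed in 6 pools of 4 samples for droplet sequencing, and each sample is 1 mouse.

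Hepatocytes in the liver are packed with enzymes for bile acid, amino acid, lipid and drug metabolism, and their genes differ along the axis from portal to central vein. On a flat, stiff culture surface they spread, build actin cables and integrin contacts, and lose much of this program within days, a process called dedifferentiation. YAP and its partner TEAD factors are transcription regulators that respond to such mechanical cues, and genes such as Ccn2, Ccn1 and Ankrd1 are widely used as their readout.

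Each mouse gave cluster 1 between 623 and 926 nuclei, and cluster 1 made up 40.1% ± 7.29 (SD, n = 8) of the hepatocyte nuclei of clusters 0, 1, 14 and 17. The lowest share was 30.8% in mouse 7, with an exact 95% binomial interval from 28.9% to 32.9%, and the highest was 50.2% in mouse 2, with an interval from 47.9% to 52.5%. The mice therefore differed by more than the counting error, which is all that these intervals cover. Of all nuclei of the Primary Hepatocytes samples, 32.2% ± 6.68 (SD, n = 8) belonged to cluster 1.

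The median number of RNA molecules (UMIs) per cluster 1 nucleus ranged from 3808 in mouse 3 to 8812.5 in mouse 5, with a mean of 6141 ± 1535 (SD) over the 8 mice. The same mean was 7517 ± 1499 in cluster 0, 5813 ± 1493 in cluster 14 and 4644 ± 1262 in cluster 17, so cluster 1 nuclei were shallower than those of cluster 0. A median of 62.4% ± 2.77 (SD, n = 8) of the UMIs in a cluster 1 nucleus came from unspliced RNA, against 64.3% ± 2.03 in cluster 0. Of the cluster 1 nuclei, 83 carried a barcode that also occurred in another pool.

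The hepatocyte label held for cluster 1. All 12 hepatocyte marker genes reached a mean of 10 CPM (UMIs of the gene scaled to a common library size), and their summed level was 2980 to 7393 CPM over the 8 mice, against 23160 to 32446 CPM in Liver hepatocytes. None of the 10 Kupffer and none of the 6 mesothelial markers reached 10 CPM. The summed endothelial markers stood at 100.0 to 194 CPM, the leukocyte markers at 28.9 to 44.6 CPM and the cholangiocyte markers at 190 to 271 CPM, with Krt19 at 0. The stellate list ranged from 94.5 to 772 CPM, of which Reln gave 37.6 to 733 CPM, while mean levels of the collagen genes and Dcn stayed under 10 CPM.

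In the following, UMIs were summed per mouse and cluster, and the log2 ratio of the summed levels between cluster 1 and another cluster was taken within each mouse. A gene was called higher or lower when its mean ratio over the 8 mice was at least 1 in absolute value and its sign was the same in all 8 mice. The clusters were built from the same counts, so these comparisons are descriptions and carry no test.

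The genes that marked cluster 1 were Plcl1, Setdb2, Phf11c, Il1r1, Scara5, Slc39a8, Tmprss2 and Nrg4, and each of them was higher in cluster 1 than in cluster 0 in every mouse. These genes were chosen with earlier results of these clusters known, so their direction is given as a description. They have different roles. Plcl1 encodes an inactive relative of phospholipase C that binds inositol phosphates, Setdb2 a histone methyltransferase, Phf11c a protein with a PHD finger and Il1r1 the receptor for interleukin-1. Scara5 encodes a ferritin receptor, Slc39a8 a carrier of zinc, manganese and other metals, Tmprss2 a cell surface serine protease and Nrg4 a secreted ligand of the EGF family.

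Plcl1 had a lowest, median and highest level of 163, 482 and 981 CPM in cluster 1 of the 8 mice, against 52.1, 101 and 230 CPM in cluster 0. The ranges overlapped between mice, but within each mouse Plcl1 was higher in cluster 1, by 2.26 ± 0.41 (SD, n = 8) on the log2 scale, or 4.78-fold. Against cluster 14 the mean log2 ratio was 1.99 ± 0.64 and against cluster 17 it was 2.63 ± 0.81, both with 8 of 8 mice higher.

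Slc39a8 stood at 23.4, 52.1 and 130 CPM (lowest, median, highest) in cluster 1 and at 5.94, 9.14 and 19.5 CPM in cluster 0, and the 2 ranges did not overlap. Its mean log2 ratio was 2.52 ± 0.57 against cluster 0, 1.19 ± 0.65 against cluster 14 and 2.18 ± 0.94 against cluster 17. Plcl1 and Slc39a8 were the markers called higher in cluster 1 against all 3 other clusters.

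Setdb2 ranged from 133 to 1051 CPM in cluster 1, with a median of 361, and from 66.1 to 185 CPM in cluster 0, with a median of 114. It was higher by 1.65 ± 0.64 than in cluster 0 and by 1.22 ± 0.41 than in cluster 14 on the log2 scale. Against cluster 17 the ratio was 0.61 ± 0.81 with 6 of 8 mice higher, which is less than the spread between mice.

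Phf11c followed Setdb2, with 44.2 to 351 CPM in cluster 1, 28.5 to 70.0 CPM in cluster 0 and log2 ratios of 1.59 ± 0.69, 1.07 ± 0.59 and 0.81 ± 0.84 against clusters 0, 14 and 17. In the GENCODE annotation of GRCm38, Setdb2 (chr14:59402009-59440884, minus strand) and Phf11c (chr14:59380833-59395381, minus strand) are neighbors with 6627 bases between them. Cab39l, which encodes a scaffold of the kinase LKB1, starts on the other strand with 87 bases between it and Setdb2. It was also called higher in cluster 1 than in cluster 0, with a log2 ratio of 1.11 ± 0.74 and 8 of 8 mice higher. Phf11d, the next gene of the Phf11 family, had a ratio of 1.25 ± 0.86 with 7 of 8 mice higher and was not called. Cab39l and Phf11d were looked up as neighbors after the values of Setdb2 were seen. Phf11a and Phf11b were looked up with them and are not reported here. The Phf11 genes are close copies, and reads shared between them could have been split by the counting.

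Il1r1 stood at 430 to 1323 CPM in cluster 1 (median 828), against 117 to 439 CPM in cluster 0 (median 324). Its log2 ratio was 1.496 ± 0.42 against cluster 0 and 2.60 ± 0.50 against cluster 17, and 0.78 ± 0.26 against cluster 14, with 8 of 8 mice higher each time. Tmprss2 had 67.7 to 192 CPM in cluster 1 and 31.9 to 47.3 CPM in cluster 0 without overlap, a log2 ratio of 1.504 ± 0.60. Against cluster 17 its ratio was only 0.39 ± 0.46, with 5 of 8 mice higher.

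Nrg4 was measured at 2678 to 4583 CPM in cluster 1 and 1770 to 2594 CPM in cluster 0, with no overlap and a log2 ratio of 0.71 ± 0.32. Scara5 ranged from 37.3 to 483 CPM in cluster 1 and from 34.5 to 209 CPM in cluster 0, with a ratio of 0.95 ± 0.67. Both were higher in 8 of 8 mice but stayed under the log2 ratio of 1 against cluster 0, so 6 of the 8 markers were called there, where 1.07% of all 8683 genes were called higher. In cluster 17 Scara5 and Nrg4 were lower than in cluster 1 by more, with log2 ratios of 2.03 ± 0.54 and 1.45 ± 0.23.

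**Figure D1:**
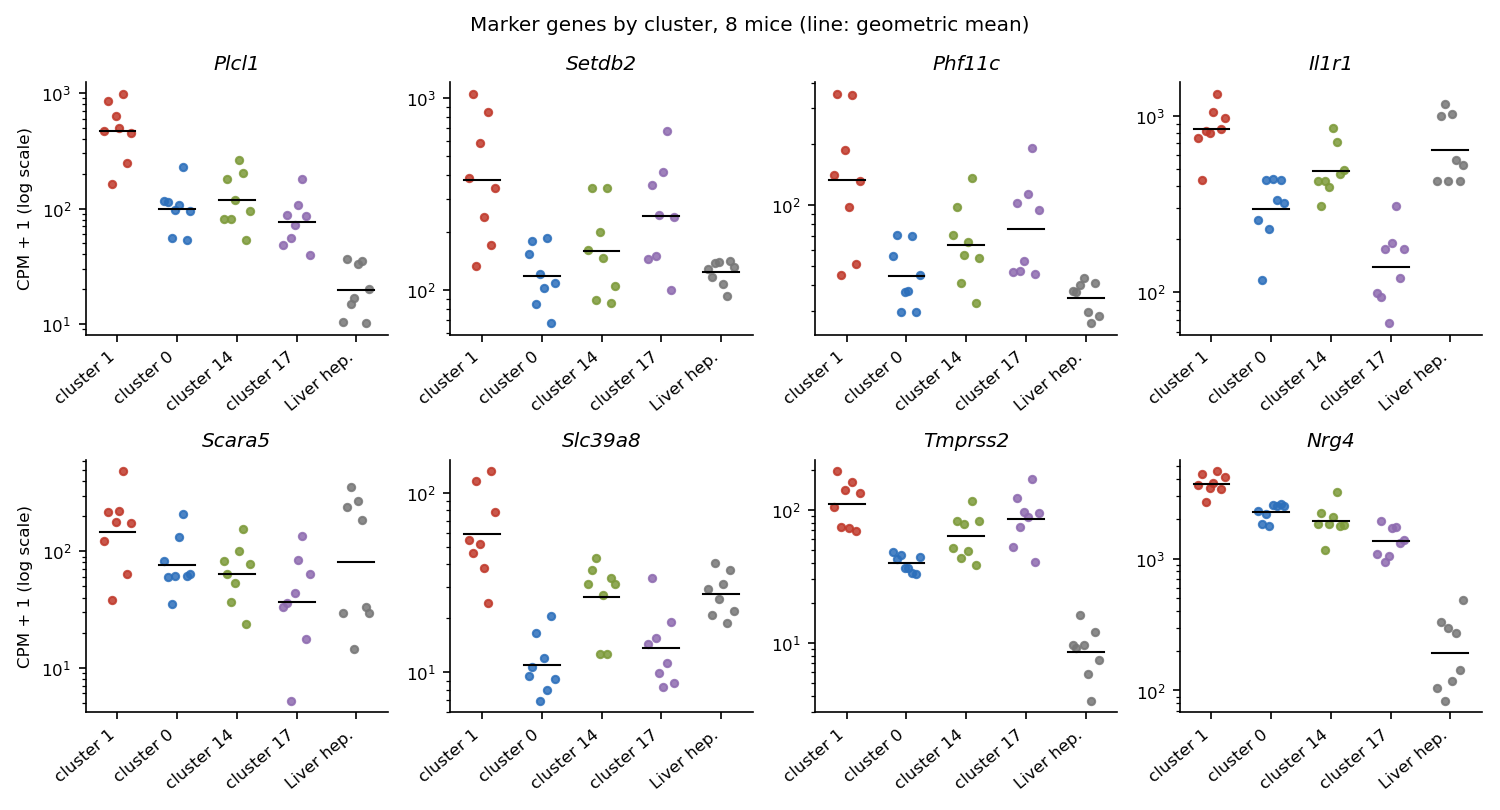
Level of the 8 marker genes in each of 8 mice (points, CPM + 1 on a log axis) in clusters 1, 0, 14 and 17 and in Liver hepatocytes, with the geometric mean as a line. Each of the 8 markers has its highest mean in cluster 1, but the ranges over mice overlap for most of them, and only Slc39a8, Tmprss2 and Nrg4 are without overlap between clusters 1 and 0. How many of all genes are without overlap was not counted, so this is no trait of the markers.

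Depth was equalized by thinning each nucleus to 2000 UMIs, which left 5599 cluster 1 nuclei and dropped 247 shallower nuclei, while 5897 nuclei remained in cluster 0 and 64 were dropped. At this depth 39.6% ± 18.0 (SD, n = 8) of cluster 1 nuclei had a Setdb2 UMI, against 18.1% ± 6.05 of cluster 0 nuclei and 16.2% ± 9.20 of the endothelial nuclei described next. The Setdb2 share was 26.0% ± 7.49 in cluster 14 and 33.8% ± 13.7 in cluster 17, so it was not particular to cluster 1. For Plcl1 the shares in clusters 1 and 0 were 34.4% ± 12.5 and 13.9% ± 6.03, and for Slc39a8 9.74% ± 5.10 and 1.98% ± 0.783. Endothelial nuclei of the same cultures (cluster 12) were set beside them, since free RNA can give any nucleus a UMI of a gene it does not express. Whether endothelial nuclei express these genes themselves was not tested, so their shares do not measure free RNA. The endothelial nuclei had a Plcl1 UMI in 13.4% ± 10.3 and a Slc39a8 UMI in 3.05% ± 3.63 of the 412 nuclei that reached this depth, while 1321 shallower ones were dropped. The mean shares in cluster 0 were near or below these endothelial shares, and those in cluster 1 were above them. Other markers exceeded the endothelial share in cluster 0 too, with Scara5 in 11.5% against 1.40%, Tmprss2 in 7.62% against 3.71% and Nrg4 in 82.3% against 51.3% of nuclei. For Il1r1 the endothelial share was 44.1% ± 10.9, between 28.7% ± 7.998 in cluster 0 and 53.4% ± 8.01 in cluster 1. At least 4 of the 8 marker genes were seen in 33.6% ± 14.9 of thinned cluster 1 nuclei, against 7.21% ± 3.19 in cluster 0, 14.2% ± 5.77 in cluster 14 and 8.64% ± 6.32 in cluster 17. Most cluster 1 nuclei thus showed fewer than 4 markers at this depth.

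Of 8683 genes with at least 10 CPM, 93 (1.07%) were called higher and 443 (5.1%) lower in cluster 1 than in cluster 0, while the median log2 ratio of all genes was -0.01. The calls were thus mostly lower levels in cluster 1, with 17.4% of them higher. With library totals in place of TMM scaling, which sets the totals from the bulk of genes, the higher share was 29.4%. The median absolute log2 ratio of all genes was 0.23, and 39.6% of genes had the same sign in all 8 mice, so many genes differed by a small and steady amount that stayed under the threshold.

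Besides the markers, and among genes with at least 50 CPM in the cluster where they were higher, the largest ratios above 0 were those of 4732465J04Rik, a long noncoding RNA, and Ntf3, a neurotrophin. 4732465J04Rik stood at 97.1 to 167 CPM in cluster 1 and 18.0 to 31.6 CPM in cluster 0, a log2 ratio of 2.55 ± 0.23 (SD, n = 8) with little variation between mice. Ntf3 varied more, from 18.7 to 170 CPM against 6.89 to 23.0 CPM, with a ratio of 2.10 ± 0.76. They were followed by Slc10a6, a carrier of sulfated steroids (1.61 ± 0.22), Dhrs9, a retinol and steroid dehydrogenase (1.56 ± 0.40), Tmem266 (1.48 ± 0.53) and Arrdc3, an arrestin-like adaptor of receptor turnover (1.44 ± 0.74). Several of these genes had similar or higher levels elsewhere. Dhrs9 was higher in cluster 17, with a log2 ratio of -1.501 ± 0.39 for cluster 1 against cluster 17. In cluster 14 the mean level was 69.4 CPM for Arrdc3, against 72.8 CPM in cluster 1, and 108 CPM for 4732465J04Rik, against 134 CPM, and both were higher still in Liver, at 464 and 256 CPM. Ntf3 and Tmem266 had log2 ratios of 0.44 ± 0.36 and 0.45 ± 0.43 against cluster 14 and were not called there. The metabolic genes Hal (histidine ammonia lyase, 1.46 ± 0.61) and Pdk4 (a kinase that shuts down pyruvate dehydrogenase, 1.33 ± 0.44) were also called higher than in cluster 0 but did not reach that level. In the metabolic lists that hold them, 8 of 12 periportal genes, 10 of 17 genes of the urea cycle and amino acid catabolism and 11 of 14 genes of fatty acid oxidation had ratios below 0, as did 4461 of all 8683 genes.

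The largest ratios below 0 among genes with at least 50 CPM in the higher cluster belonged to Ccn2, a matrix protein and YAP target, and to Sprr1a, a small proline-rich protein made in injured epithelia. Ankrd1, another YAP target, did not reach that level and is given as a list member. Ccn2 had 0.885, 3.96 and 5.99 CPM (lowest, median, highest) in cluster 1 and 46.1, 54.7 and 109 CPM in cluster 0. Every cluster 1 sum lay below every cluster 0 sum, and the mean log2 ratio was -4.48 ± 0.88, or 22.4-fold higher in cluster 0. Ccn2 rested on 170 UMIs in cluster 1, of which 0.59% were unspliced, and with unspliced UMIs alone its log2 ratio was -0.29. Sprr1a stood at 2.92 to 12.6 CPM against 99.1 to 185 CPM, with a ratio of -4.42 ± 0.80. Ankrd1, an ankyrin repeat protein of the sarcomere and nucleus, stood at 0.86 to 3.73 CPM against 17.9 to 89.6 CPM, with a ratio of -4.40 ± 0.67.

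Cluster 0 was the high one among the hepatocyte clusters for these genes. Ccn2 had mean levels of 8.06 CPM in cluster 14, 1.88 CPM in cluster 17 and 0.224 CPM in Liver, and Ankrd1 had 1.82, 1.20 and 0.201 CPM. Sprr1a had 31.2 CPM in cluster 14 and 30.1 CPM in cluster 17, between cluster 1 and cluster 0. After thinning, a Ccn2 UMI was found in 10.5% ± 3.14 (SD, n = 8) of cluster 0 nuclei and 0.709% ± 0.392 of cluster 1 nuclei. The share was 1.35% ± 0.707 in cluster 14 and 0.362% ± 0.514 in cluster 17. In the endothelial nuclei of the same cultures it was 7.72% ± 6.20. Whether these nuclei express Ccn2 themselves was not tested, so their share is not taken as background. For Ankrd1 the endothelial share was 0%, against 4.48% in cluster 0, and for Sprr1a it was 4.30%, against 17.6%.

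Sorbs2, which encodes an adaptor between actin and focal adhesions, was the most abundantly counted gene among those with the lowest ratios. It stood at 470 to 950 CPM in cluster 1 and 3068 to 4515 CPM in cluster 0 (log2 ratio -2.54 ± 0.32), while Liver had a mean of 718 CPM. Lima1, an actin cross-linker, had 38.0 to 70.8 CPM against 218 to 445 CPM (-2.44 ± 0.37). Itga2, the collagen-binding integrin alpha 2, had 4.42 to 15.8 CPM against 16.1 to 121 CPM (-2.59 ± 0.76), and Anxa3, an annexin, had 19.4 to 60.3 CPM against 160 to 338 CPM (-2.72 ± 0.49). None of these ranges overlapped, but these genes were picked for their low ratios.

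Among genes with at least 50 CPM in the cluster where they were higher, the remaining ones of the 12 lowest ratios were Aldh1a1, a retinaldehyde dehydrogenase (-3.00 ± 0.58), Osbpl3, an oxysterol-binding protein (-2.77 ± 0.64), Pkhd1, the gene of recessive polycystic kidney and liver disease (-2.70 ± 0.41), Npas2, a clock transcription factor (-2.67 ± 0.40), Pklr, liver pyruvate kinase (-2.55 ± 0.46), and Ugt2b36, a glucuronosyltransferase of a family of close copies (-2.43 ± 0.42). In all of them the cluster 1 and cluster 0 ranges did not overlap, but they were picked for low ratios. The share of all genes without overlap was not counted. Low levels were not particular to cluster 1. Pkhd1 had 21.6 to 44.8 CPM in cluster 1 and 8.05 to 28.5 CPM in cluster 17. Ugt2b36 had 40.7 to 73.5 CPM in cluster 1 and 40.2 to 66.5 CPM in cluster 14. Aldh1a1 and Npas2 had higher mean levels in cluster 14 than in cluster 1.

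**Figure D2:**
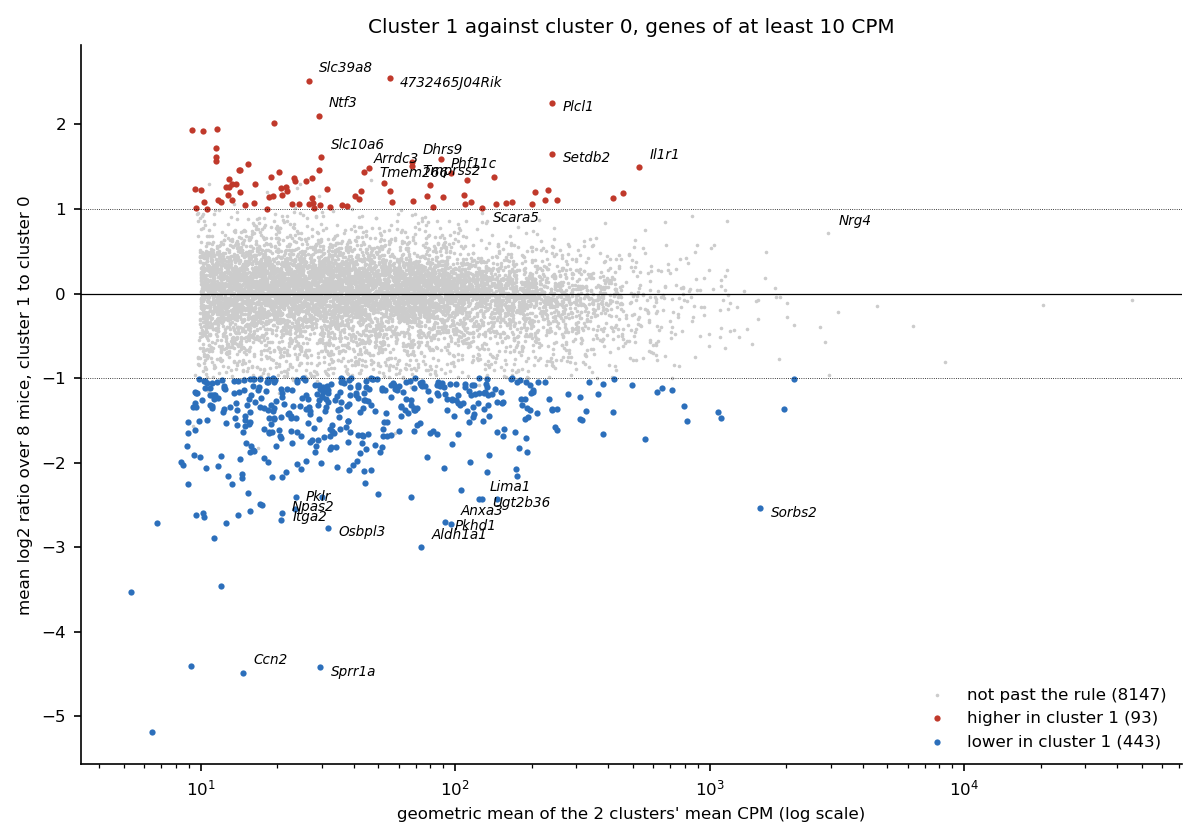
Mean log2 ratio of cluster 1 to cluster 0 over 8 mice against the geometric mean of the 2 clusters' levels (CPM, log axis) for 8683 genes, with 93 genes called higher in red and 443 called lower in blue. Lower calls outnumber higher ones and reach further from 0, down to Ccn2 at -4.48 and Sprr1a at -4.42 among the named genes.

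**Figure D3:**
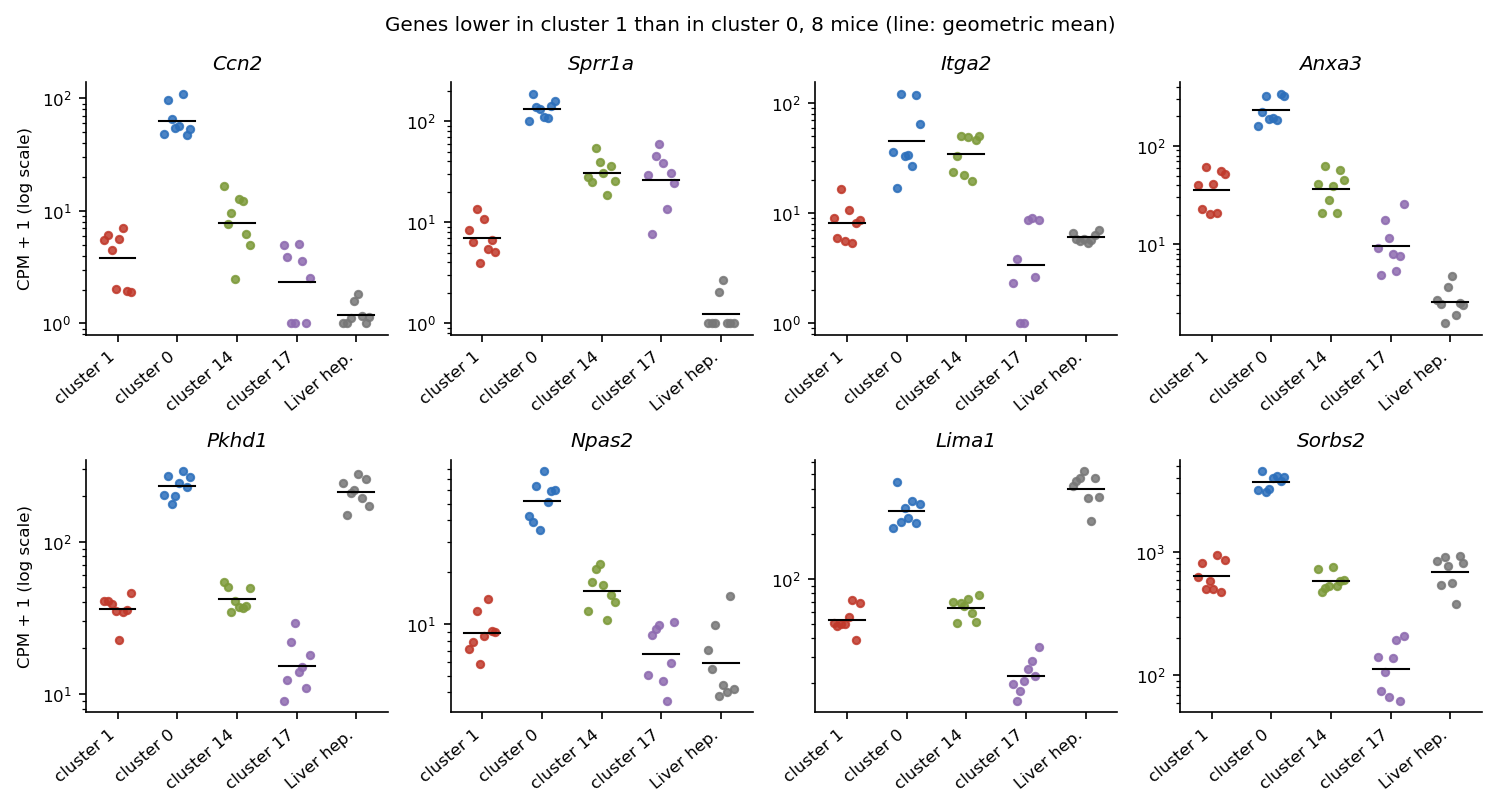
Level of 8 genes with low ratios in each of 8 mice (points, CPM + 1 on a log axis) by cluster and in Liver hepatocytes, with the geometric mean as a line. Cluster 0 stands above cluster 1 without overlap in each panel, while Anxa3 and Sorbs2 in clusters 14 and 17 lie near or below cluster 1. These genes were picked for low ratios, and the share of all genes without overlap was not counted.

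Gene lists, written with earlier results of these data known, gave the wider picture against cluster 0. The YAP and TEAD list, which holds the regulators Yap1 and Wwtr1 besides targets, had a median log2 ratio of -0.73, against -0.01 for all genes. Among its 13 genes with at least 10 CPM, 5 were called lower and 0 higher, where 5.1% of all genes were called lower. Beside Ccn2 and Ankrd1 these were Dlc1, a GTPase-activating protein (-2.33 ± 0.55), F3, tissue factor (-2.08 ± 0.41), and Ccn1, a matrix protein (-1.11 ± 0.26). The regulators themselves had ratios of 0.08 for Yap1, 0.09 for Tead1 and -0.30 for Wwtr1, none of which was called. Relative to Liver, Ccn1 was called higher in cluster 1 (2.74 ± 0.60) and Dlc1 lower (-4.66 ± 1.04), so the members of the list did not share a direction in that comparison.

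The sequence GGAATG, searched on both strands (CATTCC on the other), is the core to which TEAD factors bind. It was found within 250 bases before the RefSeq start (GRCm38.p6) of 9 of the 11 genes of the YAP and TEAD list with a promoter entry, against 14.4% of 27025 genes. Yap1 and Wwtr1 are among the 9. The list was written as genes of this pathway, so its share is a description and no test. Among genes called lower in cluster 1 than in cluster 0 the core was present in 64 of 328 (19.5%), among genes called higher in 9 of 67 (13.4%), and among all tested genes in 12.5% of 6839. The sites of called members, and for comparison those before 2 of the genes higher in cluster 1, are shown with the core in capitals, 5′ to 3′ on the strand of the gene.
Ankrd1, chr19:36120039-36120064, minus strand: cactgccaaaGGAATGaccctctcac
Ankrd1, chr19:36119952-36119977, minus strand: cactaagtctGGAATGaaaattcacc
Ccn1, chr3:145650073-145650098, minus strand: cgccaaccaaCATTCCtgagatgttt
Plcl1, chr1:55405760-55405785, plus strand: caacagaacaCATTCCattcttcgcg
Slc39a8, chr3:135825206-135825231, plus strand: agcaaataaaCATTCCttgtgatctg
The core thus also stood before Plcl1 and Slc39a8, which moved in the other direction, and a match describes letters in this window and not binding. It was also present before Tmprss2 and before 1 of the listed starts of Il1r1, and it was not found in the windows of Setdb2 and F3. Ccn2 and Dlc1, both called lower, had no promoter entry and were not searched.

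Of 18 actin cytoskeleton genes all 18 had a ratio below 0 against cluster 0, with a median of -0.65, and 4 were called, where 4461 of all 8683 genes had ratios below 0 and 5.1% were called lower. Among them were Tpm2, a tropomyosin of muscle (-3.53 ± 0.94), Actn1, alpha-actinin (-1.58 ± 0.53), and Flna, a filamin (-1.53 ± 0.36). Among 14 integrin and matrix genes, 5 were called lower and 0 higher, with a median of -0.73. Itga2 was joined by Itga1 (-1.81 ± 0.44), Itga3 (-1.06 ± 0.44) and the basement membrane collagens Col4a1 (-1.16 ± 0.33) and Col4a2 (-1.17 ± 0.32), whose genes overlap in the annotation. Without strand, reads in the shared stretch of the collagen genes cannot be told apart, and strand use was not given in the sources used here. The medians of both lists lay below 0 against cluster 0 only. The actin list had medians of 0.49 against cluster 14, 0.69 against cluster 17 and 1.72 against Liver. For the integrin and matrix list they were 0.0058, 0.37 and 0.52, and for all genes 0.28, 0.22 and -0.26. Single members went otherwise. Itga2 stood at 18.6 to 49.7 CPM in cluster 14, above its cluster 1 range. Against cluster 14, 2 of 14 integrin and matrix genes were called lower and 0 higher, where 7.37% of all genes were called lower and 1.27% higher. Against cluster 17, 1 of 13 was called lower and 3 higher, where 3.47% of all genes were called lower and 12.2% higher.

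Of 14 hepatocyte transcription factors, 4 were called lower than in cluster 0 and 0 higher, with a median of -0.59, where 5.1% of all genes were called lower and 1.07% higher. The bile acid receptor Nr1h4 stood at 32.1 to 91.0 CPM against 132 to 218 CPM in cluster 0 (-1.67 ± 0.49), Nr5a2 at -1.66 ± 0.49, the xenobiotic receptor Nr1i2 at -1.64 ± 0.36 and Onecut1 at -1.64 ± 0.84. Hnf4a, the central regulator of hepatocyte genes, did not share this direction, with a ratio of 0.04 ± 0.32 and 5 of 8 mice higher. Of 18 acute phase genes 4 were called lower (Crp -1.45 ± 0.53, Itih3 -1.25 ± 0.27, Itih4 -1.20 ± 0.19 and Cp -1.01 ± 0.40), with a median of -0.39. Of 20 genes of lipogenesis and cholesterol synthesis 19 had ratios below 0, as did 4461 of all 8683 genes, and 3 were called, with the glycerol acyltransferase Gpam at -2.11 ± 0.38. Cytochrome P450 genes had a median of -0.27 with none of 15 called.

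Interleukin-1 and NF-kB genes were split. The receptor Il1r1 was the 1 member called higher, while 4 of 19 were called lower, namely the inhibitor Tnfaip3 (-1.63 ± 0.38), the chemokine Ccl2 (-1.61 ± 0.45), the regulator Nfkbiz (-1.14 ± 0.39) and the adhesion molecule Icam1 (-1.13 ± 0.37). The list median was -0.54, and over all genes 1.07% were called higher and 5.1% lower. Irak3, an inhibitor of the receptor complex, was higher in 8 of 8 mice by 0.90 ± 0.45 and stayed under the threshold.

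The lists that hold the other marker genes follow, and over all 8683 genes 1.07% were called higher, 5.1% lower, and 4222 had ratios above 0. Of 16 histone lysine methyltransferases Setdb2 was the 1 called higher and none was called lower, with a list median of -0.02. Of 10 phosphoinositide genes Plcl1 was called higher, whereas Plcb1 (-1.18 ± 0.36) and Inpp5a (-1.05 ± 0.20) were called lower. Of 8 cell surface proteases and inhibitors, Tmprss2 was called higher, while Hpn, Tmprss6, Plaur and Hgfac were called lower with ratios of -1.67 ± 0.38, -1.14 ± 0.30, -1.87 ± 0.52 and -1.56 ± 0.57. Of 16 genes of metal handling, Slc39a8 was called higher and Cp and the transferrin receptor Tfr2 (-1.11 ± 0.32) lower. Of 11 genes of the EGF family, to which Nrg4 belongs, and its receptors, 0 were called higher and 1 lower. In that list 7 genes had ratios below 0, with a median of -0.11. Among 17 glucocorticoid targets 12 had ratios above 0, with a median of 0.32 and with Pdk4 called. The cholangiocyte list had 3 of its 5 genes called lower, among them Pkhd1 and Bicc1 (-2.35 ± 0.48), and the leukocyte list 1 of 1, Themis (-2.11 ± 0.43). In the stellate list 1 of 3 genes was called higher, Reln with a ratio of 1.08 ± 0.40, and the list median was 0.28. The part of these cell type markers in the other ratios was not tested.

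**Figure D4:**
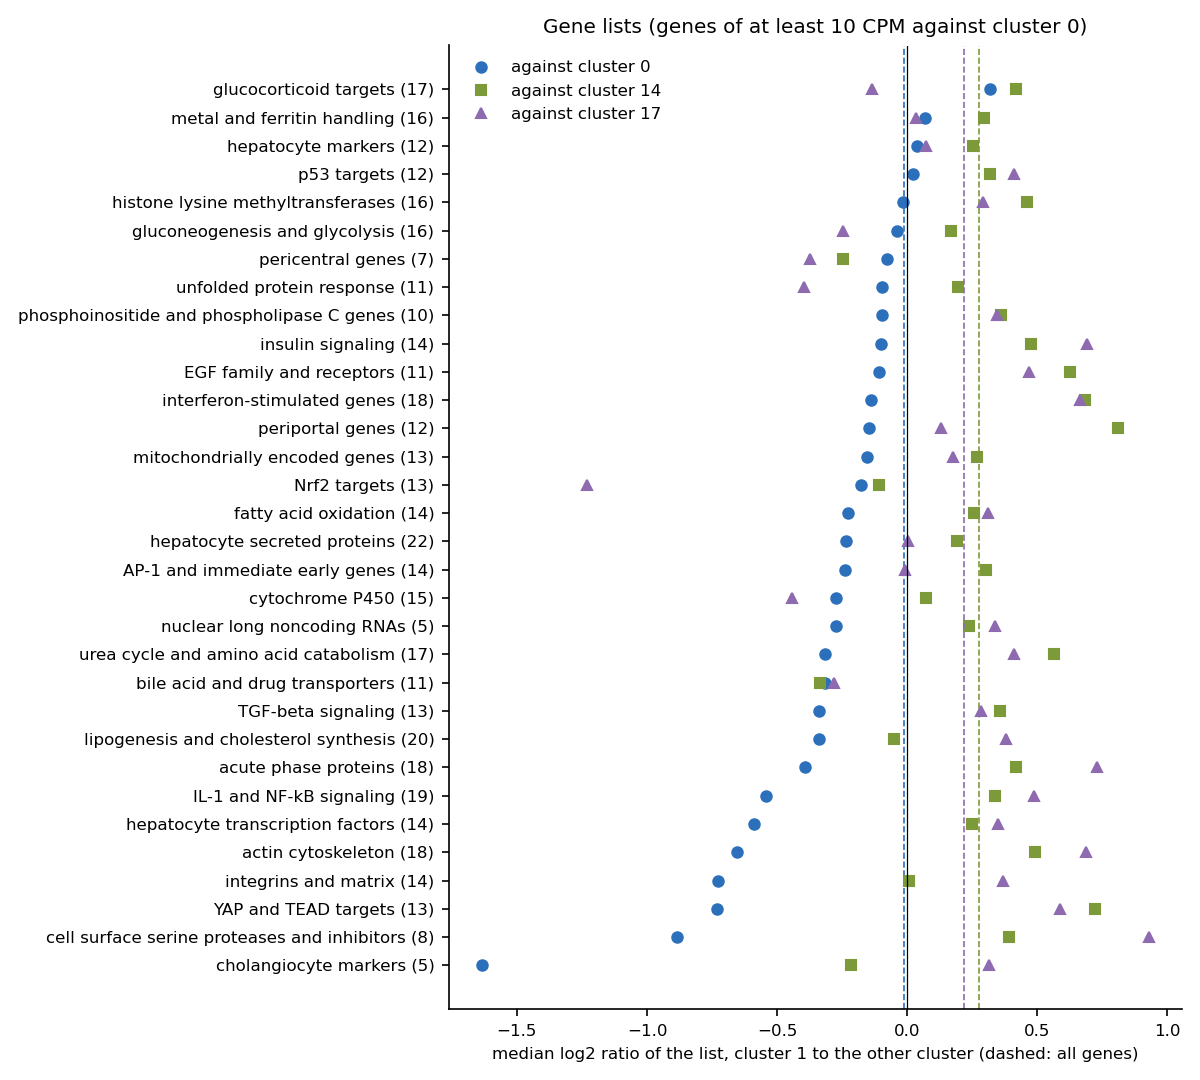
Median log2 ratio of each gene list, cluster 1 to cluster 0 (circles), cluster 14 (squares) and cluster 17 (triangles), with the number of genes of at least 10 CPM against cluster 0 in parentheses and the median of all genes as dashed lines. Lists with fewer than 5 such genes are not drawn, and among those drawn the cholangiocyte, protease, YAP and TEAD, integrin and actin lists lie lowest against cluster 0, and the Nrf2 targets lie lowest against cluster 17.

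Against cluster 14, 112 of 8819 genes (1.27%) were called higher and 650 (7.37%) lower in cluster 1. The median log2 ratio of all genes was 0.28, and with DESeq2 size factors it was 0.05 and the higher share of calls 3.32% in place of 14.7%, so the number of higher calls depends on the scaling. After Plcl1, the highest ratios were those of Cps1, the first enzyme of the urea cycle (1.69 ± 0.47), Eppk1, epiplakin (1.63 ± 0.18), Nox4, an oxidase that makes hydrogen peroxide (1.61 ± 0.55), and Slc7a2, a carrier of cationic amino acids (1.44 ± 0.35). The 5 lowest were Gm47507, Srsf12, Grm4, Rgma and Plek, with ratios from -7.10 ± 0.87 to -4.91 ± 0.82. Their mean levels in cluster 1 were under 3 CPM, and those in cluster 14 were 67.4 to 409 CPM, so these genes marked cluster 14. Of 12 periportal genes all 12 had ratios above 0 against cluster 14, with a median of 0.81 and 3 called higher, where 6331 of all 8819 genes had ratios above 0 under this scaling. The YAP and TEAD list had a median of 0.72 with 0 of 11 called, against -0.73 over 13 genes in the comparison with cluster 0. Both comparisons share the cluster 1 sums, but the 2 medians cover different genes. Ccn2 and Ankrd1 did not reach the mean of 10 CPM against cluster 14 and were left out there. Ccn2 was lower in cluster 1 than in cluster 14 in every mouse, at 0.885 to 5.99 CPM against 1.46 to 15.7 CPM. The endothelial list had 4 of 5 genes called lower than in cluster 14, in which its summed level was 241 to 394 CPM. The part of these genes in the other ratios was not tested.

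Against cluster 17, 1034 of 8448 genes (12.2%) were called higher and 293 (3.47%) lower, with a median log2 ratio of 0.22 for all genes. With DESeq2 size factors this median was 0.02 and 57.8% of the calls were higher, in place of 77.9%. The highest ratios were those of Syt12, a synaptotagmin (3.11 ± 0.55), Alpk1, a kinase that senses bacterial sugars (2.87 ± 0.99), the noncoding Gm16170 (2.85 ± 0.89), the lipase Abhd6 (2.85 ± 0.52) and the recombination gene Rad51b (2.78 ± 0.32). The lowest were Akr1c19 (-4.83 ± 0.41), Ugt2b37 (-4.40 ± 1.01), the clock-controlled Ciart (-3.43 ± 0.76), Tmem108 (-3.28 ± 0.82) and Akr1c13 (-3.13 ± 0.81), and the Akr1c and Ugt2b families are made of close copies. Of 14 targets of Nrf2, the regulator of the response to oxidants, 9 were called lower in cluster 1 and 0 higher, with a median of -1.23. Among them were Nqo1 (-2.05 ± 0.45), the cystine carrier Slc7a11 (-1.96 ± 0.75) and the glutathione synthesis gene Gclc (-1.18 ± 0.21). Against cluster 0 the same list had a median of -0.18 with none of 13 called.

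The distance from cluster 1 to Liver hepatocytes of the same mouse was far greater than to any cultured cluster. Of 9257 genes, 1131 (12.2%) were called higher and 2518 (27.2%) lower than in Liver, with a median absolute log2 ratio of 0.77, against 0.41 for cluster 14 and 0.44 for cluster 17. The median log2 ratio of all genes was -0.26, and with library totals the higher share of calls was 63.5% in place of 31.0%, so the balance of directions depends on the scaling. Liver and Primary Hepatocytes samples were in the same pool only for mouse 4, and the part of the pool in these differences was not tested.

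The markers of cluster 1 stood apart from Liver to different extents. Plcl1 had 9.12 to 35.2 CPM in Liver, with a log2 ratio of 4.65 ± 0.66, and Nrg4 had 82.4 to 482 CPM, with a ratio of 4.27 ± 0.77. Tmprss2 had a ratio of 3.88 ± 1.13 and was called as well. In mouse 4, where both samples shared a pool, the log2 ratio of Plcl1 was 5.31. By contrast, Il1r1 ranged from 425 to 1157 CPM in Liver (0.39 ± 0.87, 6 of 8 mice higher in cluster 1) and Scara5 from 13.5 to 355 CPM (0.88 ± 2.14, 5 of 8), and neither was called. In Cell Suspension hepatocytes Plcl1 had a mean of 28.9 CPM, Setdb2 120.4 CPM and Tmprss2 12.5 CPM, close to the Liver means of 21.1, 124 and 8.20 CPM. Over all genes tested against Liver, 27.2% were called lower and 12.2% higher. All 15 pericentral genes and 10 of 14 periportal genes were called lower than in Liver, as were 22 of 24 cytochrome P450 genes. In the other direction, 12 of 14 immediate early genes and 14 of 17 interferon-stimulated genes were called higher. Markers of other cell types were higher as well, with 3 of 4 endothelial genes (median 2.09) and 2 of 3 stellate genes (median 2.42) called higher than in Liver, and their part in these differences was not tested.

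Mice differed in the levels of the marker genes within cluster 1. Setdb2 stood at 1051 CPM in mouse 2, 844 in mouse 6 and 581 in mouse 4, the 3 mice with the largest share of cluster 1 nuclei (50.2%, 47.1% and 46.4%). It stood at 133 CPM in mouse 3 and 170.4 CPM in mouse 7, where the shares were 36.4% and 30.8%. Mouse 1 did not follow, with 383 CPM and a share of 31.4%. The clusters were made from the same counts, so the level and the share are not independent and this order is a description. Mouse 3 and mouse 7 also had the lowest median UMIs per cluster 1 nucleus, 3808 and 4732, and the part of depth in these levels was not tested.

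Phf11c, Plcl1 and Cps1 had the same 3 mice at the top and the same 2 at the bottom. Cps1 stood at 2883 CPM in mouse 6, 2726 CPM in mouse 2 and 1553 CPM in mouse 4, and at 519 CPM in mouse 3 and 451 CPM in mouse 7. The order was shared in part with the other cultured clusters. In cluster 14 Cps1 was also highest in mice 6 and 2, at 1026 and 519 CPM, and lowest in mice 7 and 3, at 152 and 222 CPM, and Setdb2 stood at 339 CPM in both mouse 2 and mouse 6 against 84.4 CPM in mouse 7 and 88.0 CPM in mouse 3. In cluster 0 Setdb2 was again highest in mice 6 and 2, at 185 and 179 CPM, and lowest in mice 7 and 3, at 66.1 and 84.0 CPM, and Phf11c had the same mice at both ends. Cps1 in cluster 0 was also lowest in mice 7 and 3, at 540.2 and 546 CPM, but highest in mouse 1, at 1212 CPM. In cluster 17 Setdb2 was highest in mice 6 and 5, at 676 and 411 CPM, and lowest in mice 7 and 1, at 99.2 and 145 CPM, and Cps1 was highest in mice 6 and 8, at 2565 and 1739 CPM. Slc39a8 did not follow this order within cluster 1, with its highest levels in mice 7 and 3, at 130.4 and 115 CPM, and its lowest in mouse 6, at 23.4 CPM. In Liver hepatocytes Setdb2 ranged only from 92.6 CPM in mouse 6 to 141 CPM in mouse 7.

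**Figure D5:**
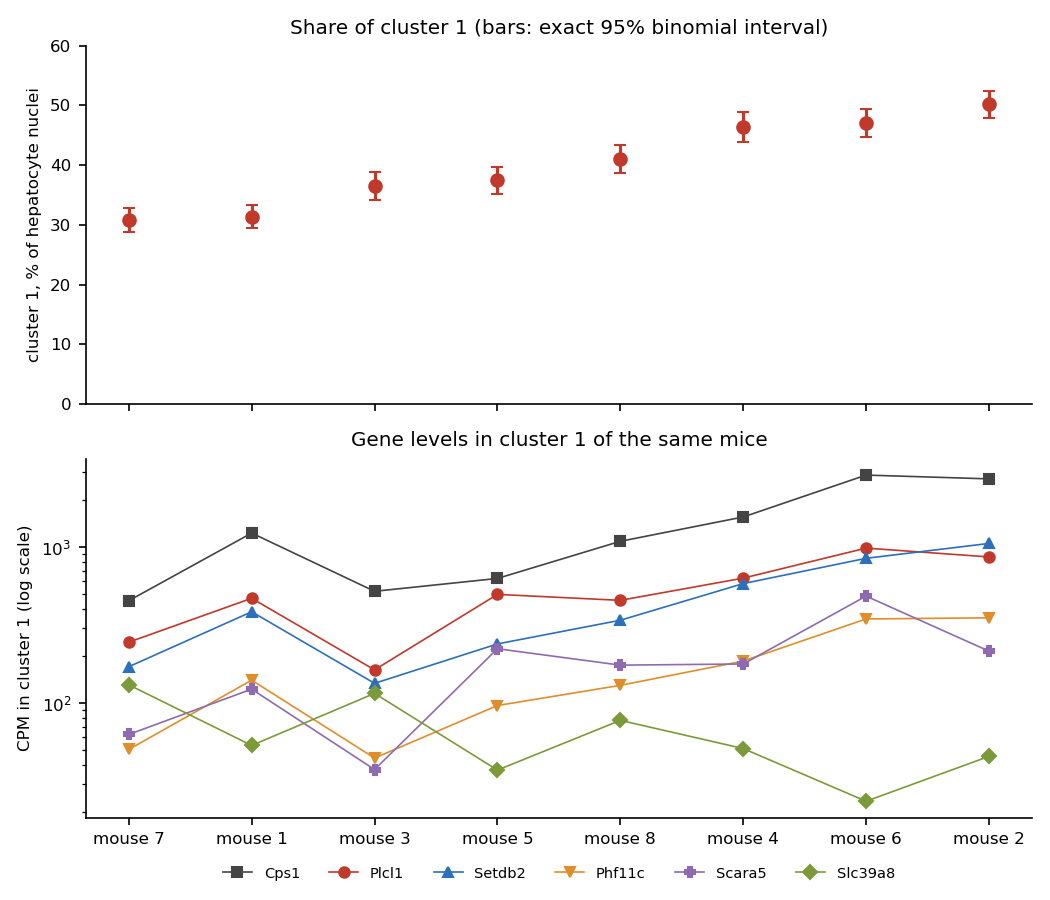
Top, share of cluster 1 among hepatocyte nuclei in each of 8 mice, ordered by share, with exact 95% binomial intervals. Bottom, levels of 6 genes in cluster 1 of the same mice (CPM, log axis), where Setdb2, Phf11c, Plcl1 and Cps1 are highest in mice 2, 6 and 4 and Slc39a8 is lowest in mouse 6.

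The hashtag library was not used to make the clusters, so its measures could be tested between clusters of the same sample. The share of hashtag UMIs that came from the assigned tag was 45.1% in cluster 1 and 45.4% in cluster 0, a difference of -0.29 ± 1.91 percentage points (SD, n = 8, two-sided exact paired permutation test, adjusted p = 0.719). Hashtag UMIs per nucleus differed by -0.01 ± 0.05 on the log2 scale (adjusted p = 0.628, same exact test), with 4 of 8 mice higher, so neither measure set cluster 1 apart from cluster 0 beyond the spread between mice. Against cluster 17 the assigned share was higher in cluster 1 by 2.88 ± 0.905 percentage points in 8 of 8 mice and hashtag UMIs by 0.08 ± 0.04 on the log2 scale in 8 of 8 mice, both with an adjusted p of 0.0234 in the exact paired permutation test over 6 tests. Without the pairing within mice the exact permutation p was 0.349 for the share and 0.752 for the hashtag UMIs, so both calls against cluster 17 rest on the pairing. Against cluster 14 the differences were -0.76 ± 0.914 percentage points (adjusted p = 0.109, exact permutation) and -0.03 ± 0.04 on the log2 scale (adjusted p = 0.141, exact permutation). The smallest unadjusted p this test can give is 0.00781.

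The share of cluster 1 was set against 3 sample measures over the 8 mice, and none of the relations passed the test, and at most 3 of these samples shared a pool, too few for values within pools. With median UMIs per hepatocyte nucleus, Pearson's r was -0.19 (exact permutation p = 0.637, adjusted 0.729) and Spearman's rho 0.05 (exact permutation p = 0.935, adjusted 0.935), and r was 0.51 without mice 1 and 5, the farthest from the median depth. With the assigned hashtag share, r was -0.18 (exact permutation p = 0.671, adjusted 0.729), rho was 0.14 (exact permutation p = 0.752, adjusted 0.935), and r was 0.02 without mice 1 and 3. With the ratio of summed pericentral to periportal genes in Liver hepatocytes of the same mouse, which ranged from 0.24 to 0.62, r was -0.17 (exact permutation p = 0.729, adjusted 0.729), rho was -0.17 (exact permutation p = 0.703, adjusted 0.935), and r was 0.03 without mice 3 and 8.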

How the data were processed

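Single-nucleus RNA of 24 hashtagged samples in 6 pools was used. Pseudo-alignment by the authors (Salmon Alevin, Alevin-fry, GRCm38) produced the deposited RNA counts, which are unnormalized UMIs kept apart for spliced, unspliced and ambiguous RNA, and the deposited hashtag counts. The authors' table of nuclei gives the counts per nucleus and its hashtag, cluster number and cell type name, after demultiplexing and removal of doublets by the authors. The 3 splicing states were added here, and the sum equaled the authors' total for all 53467 nuclei. The hashtag name CD2 was taken for CS2 (Cell Suspension, mouse 2). Pools held 6720 to 10247 nuclei and 4.16e+07 to 7.45e+07 UMIs in nuclei. Of 32285 genes, 32158 have a symbol. No strand setting of the counting was given in the sources used here.

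UMIs were summed per mouse and cluster (at least 94 nuclei each), scaled with TMM (edgeR 4.0.16, R 4.3.3) and compared within mice as log2 ratios with a prior count of 1. Genes had to have a mean of 10 CPM over the sums compared. The study's methods describe a lobe, a suspension and plated cells taken from the same liver. Samples of the same number were taken here to come from the same mouse, which the methods do not state. Clusters of 1 sample form the pairs of the hashtag tests, with Benjamini-Hochberg adjustment of the p-values. Named genes were the markers, list members, and genes called with at least 50 CPM in the higher cluster, 12 with the largest and 12 with the smallest ratio against cluster 0, and 5 and 5 against clusters 14 and 17. The markers, lists and rules were chosen with earlier results of these data known. The call rule was tried on simulated data for cluster 1 against cluster 0, with 50 of 8683 genes for each change. It called 100% of the genes raised by a log2 change of 1.5 and 86.0% of those lowered by it (78.0% at a log2 change of -2.5). Every simulated gene had the same spread between mice, set from the median SD of 0.22, so the rates do not cover genes of larger spread. Promoter sequences are from RefSeq (GRCm38.p6), and gene positions from GENCODE. Alternatives were DESeq2 1.42.0 size factors, library totals, other filters and prior counts, 1 splicing state, deep or thinned nuclei and leaving out each mouse. Some called list members are not reported here.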

Additional observations from a re-analysis of the deposited data

Results flagged for a closer look

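Of 82 groups of 8 values looked at, 6 held a value far from the others, where chance alone flags about 1 in 20 groups. Scara5, the ferritin receptor, stood at 483 CPM in cluster 1 of mouse 6, against 222 CPM in the next mouse and a median of 176 CPM. Itga2 stood at 15.8 CPM and Pklr at 20.7 CPM in 1 mouse each, against 9.67 and 11.4 CPM in the next highest mouse. The low genes Ugt2b37 and Akr1c13 reached 7.99 and 11.0 CPM in 1 mouse each, against 3.64 and 5.90 CPM in the next. For Lima1 the log2 ratio of cluster 1 to cluster 0 was -3.22 in 1 mouse, with the next at -2.61 and a median of -2.24.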

How the results depend on the processing

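Against cluster 0 the counts of 93 higher and 443 lower genes became 146 higher with library totals, 302 and 777 with a filter of 10 counts, and 501 and 1169 with a log2 ratio of 0.5. Against cluster 14, 112 higher genes became 29 with DESeq2 size factors, 44 with library totals, 239 with the filter of 10 counts, 208 with unspliced, 261 with spliced and 271 with thinned UMIs, and 650 lower genes became 1899 with that filter and 406 with spliced UMIs. Against cluster 17, 1034 higher genes became 662 with DESeq2 size factors and 1701 with that filter, and 293 lower genes became 483 with DESeq2 size factors. Against Liver, library totals gave 2582 higher and 1482 lower genes and that filter 2613 and 4263. Under DESeq2 size factors the lists with a median below 0 numbered 13 against cluster 14 and 14 against cluster 17, and the medians changed sign for secreted proteins (-0.0301), the unfolded protein response (-0.0257) and gluconeogenesis (-0.0535) against cluster 14 and for periportal (-0.0677) and mitochondrially encoded genes (-0.026) against cluster 17. Thinning turned insulin signaling against cluster 0 (0.0238) and Nrf2 targets against cluster 14 (0.0243). The share of cluster 1 was 32.2% over all nuclei of the samples. The cause of these shifts was not tested. Without the replicate block the hashtag differences from cluster 0 were again -0.29 percentage points (exact permutation p = 0.922) and -0.01 on the log2 scale (exact permutation p = 0.958), and the pairing changed neither of these calls, while both calls against cluster 17 were lost without it (exact permutation p = 0.349 and 0.752).

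Leaving out 1 mouse at a time gave 83 to 104 higher and 424 to 469 lower genes against cluster 0, 112 to 136 and 632 to 669 against cluster 14, 1007 to 1123 and 293 to 314 against cluster 17, and 1125 to 1156 and 2485 to 2560 against Liver. The share ranged from 38.6% to 41.4%, the assigned hashtag difference from cluster 0 from -0.74 to 0.05 percentage points, turning above 0 without mouse 3 (0.045) or mouse 7 (0.0459), and the hashtag UMI difference from -0.02 to -0.0029. Pearson's r ranged from -0.44 to 0.0387 with UMIs, from -0.39 to 0.24 with the hashtag share and from -0.35 to 0.0098 with the Liver ratio, changing sign without mouse 1, mouse 1 and mouse 3. For named genes called higher or lower against cluster 0, 14 or 17, 2112 values under the alternatives moved by at most 1 SD. A further 48 moved by more and 0 changed sign. Such genes had a mean log2 ratio of at least 1 in absolute value, so a change of sign was unlikely from the start. Genes that were not called, ratios to Liver and some called genes against clusters 14 and 17 were not included. Genes under 10 CPM in cluster 1, such as Ccn2 and Ankrd1, rest on few UMIs.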
